A study of Mus musculus with 14 samples.

Results

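The insulin-like growth factor (IGF) and platelet-derived growth factor (PDGF) genes described here are the ligands Igf1, Igf2 and Pdgfa, the receptors Igf1r, Pdgfra and Pdgfrb, and the IGF binding proteins Igfbp3, Igfbp4 and Igfbp5. They were chosen by name, and each probe set that the array annotation gives one of these symbols alone was taken. Of the 9 genes, 8 had such probe sets, 15 in all, out of 8251 genes and 12422 probe sets on the array. Igfbp5 was represented by 1 probe set, 100566_at, that is annotated to both Igfbp5 and Tmem119. That probe set is described under its ID and is left out of every count of genes or probe sets.

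IGF ligands bind the receptor tyrosine kinase IGF1R, which signals through insulin receptor substrates to PI3K and Akt and through Ras to the MAP kinases, and which promotes survival and growth. The binding proteins hold the ligands outside the cell and can limit or extend their action. PDGF-A dimers signal through the alpha receptor, which in the brain is best known from oligodendrocyte precursors, whereas the beta receptor is best known from pericytes. In the developing mouse cerebellum, Igf2 is known as a partner of hedgehog signalling in granule cell precursors and in medulloblastoma.

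RNA was measured in dissociated cerebellar cells of patched heterozygous mice, which carry 1 lesioned copy of the hedgehog receptor gene and are prone to medulloblastoma. The 3 stages were granule cell precursors at 7 days (GCP, n = 4), preneoplastic cells at 6 weeks (pretumor, n = 5) and cells of symptomatic tumors at 10 to 25 weeks (tumor, n = 5). All 3 stages carry the same patched genotype, so no wild-type animals serve as controls, and age changes together with stage and cannot be told apart from it. The patched line was kept by breeding to 129X1/SvJ mice; the labels also describe patched mice carrying Math1-GFP, and do not say which line gave each array. Cells were freed with papain and DNase and collected between 35% and 65% Percoll, and the cells used for these arrays were not sorted, so each sample can hold other cerebellar cell types. In such bulk samples, fewer cells of a type and less RNA per cell cannot be told apart. No label says that the samples of a stage were separate animals, and p-values therefore measure the spread between samples, which may be technical.

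Values are array intensities on a linear scale or their log2. The median intensity of an array lay between 4.11 and 4.39, and 70.5% of all values were below 16, a range called the low band here. Background was not measured, and a level in the low band is not read as absence. Of the markers of granule cell precursors, Zic1 was high at every stage, at 12.74, 12.59 and 12.64 (mean log2 intensity in GCP, pretumor and tumor), and Atoh1 was in the low band at every stage. Pax6 and Neurod1, the 2 called of 11 markers measured, fell at both later stages relative to GCP; in tumor against pretumor samples 0 were called, and 1 at an unadjusted p under 0.05. The GCP arrays formed pairs, with a correlation of 0.9977 between GCP 1 and GCP 2 and of 0.9975 between GCP 3 and GCP 4, against at most 0.9956 across the pairs. On the first axis of deviations from the group means, which held 35.4% of their variance, tumor 2 and pretumor 3 stood furthest out.

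Of the 15 probe sets, 1 was called higher (Pdgfa) and 1 lower (Igfbp4, within the low band) in tumor than in GCP samples. A probe set was called where limma's test gave a Benjamini-Hochberg adjusted p under 0.05 over all 12422 probe sets. Of all probe sets, 4.60% were called in that comparison, 1.41% higher and 3.19% lower. In pretumor against GCP samples, 0 of the 15 were called higher and 1 lower (the same Igfbp4 probe set), against 4.36% of all probe sets, 1.67% higher and 2.69% lower. In tumor against pretumor samples limma called 0 of the 15, against 0.998% of all, 0.209% higher and 0.789% lower. At an unadjusted p under 0.05 there were 4 of the 15 in each comparison, beside 15.4% of all probe sets in pretumor against GCP, 15.4% in tumor against GCP and 11.3% in tumor against pretumor. The members' counts are too few to be set apart from these shares. The median log2 difference over the 15 was -0.07 in pretumor minus GCP, -0.03 in tumor minus GCP and 0.02 in tumor minus pretumor, beside -0.01, 0.00 and 0.01 over all probe sets. The comparisons share arrays, since both later stages are set against the same 4 GCP arrays.

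**Figure D1:**
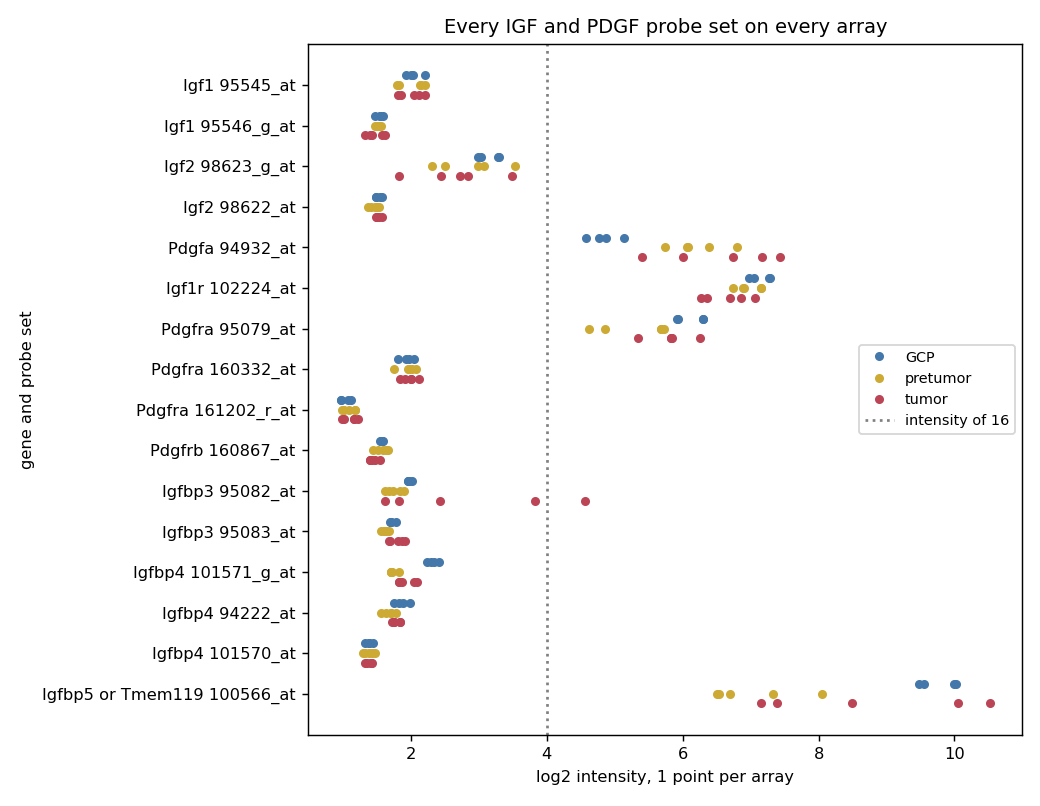
Log2 intensity (horizontal axis) of each IGF and PDGF probe set (vertical axis) on each of the 14 arrays, 1 point per array, without a floor, coloured by stage; the dotted line marks an intensity of 16. Pdgfa, Igf1r and 1 Pdgfra probe set, with 100566_at, lie to the right of the line on all arrays, and the other 12 probe sets lie to its left except Igfbp3 95082_at on tumor 3.

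Levels differed widely between the genes. A probe set with a mean intensity of at least 16 was present for 3 of the 8 genes, Pdgfa, Pdgfra and Igf1r. The other 12 probe sets, which include all those of Igf1, Igf2, Pdgfrb, Igfbp3 and Igfbp4, ran from 1.95 to 23.7, and from 1.95 to 11.6 with Igfbp3 95082_at set aside. Intensities of different probe sets depend on the probes as well as on the RNA, so these are not ranked against each other.

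Pdgfa, the ligand of the PDGF alpha receptor, rose in tumor relative to GCP samples, and its pretumor levels also lay above those of GCP without passing the test. Its 1 probe set, 94932_at, had intensities of 23.8, 27.2, 35.1 and 29.1 in the 4 GCP samples. The 5 pretumor samples had 111, 67.7, 83.9, 53.4 and 67.2, and the 5 tumor samples had 107, 143, 42.3, 172 and 64.2. Every later sample lay above every GCP sample, the lowest being tumor 3, and tumor and pretumor samples overlapped. The mean log2 intensity was 4.83 ± 0.23 in GCP, 6.22 ± 0.40 in pretumor and 6.55 ± 0.84 in the tumor samples (SD). In tumor against GCP samples Pdgfa rose 3.28-fold (log2 difference 1.71, SE 0.37, limma adjusted p = 0.0211). In pretumor against GCP samples the difference was 2.60-fold (log2 1.38, SE 0.37, 95% interval 0.57 to 2.19) and missed the threshold (adjusted p = 0.0613). Tumor minus pretumor was 0.33 (95% interval -0.43 to 1.09, adjusted p = 0.786).

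Both Pdgfa comparisons against GCP lay close to the threshold. The tumor call ended without GCP 1, GCP 2 or GCP 4 (adjusted p = 0.0620, 0.0610 and 0.0590), with replicate numbers as a block (0.0688), with the 2 stages fitted alone (0.0859), with GCP 1 and GCP 2 as the only GCP arrays (0.121) or GCP 3 and GCP 4 (0.180), with each GCP pair averaged (0.179), and without tumor 2 and pretumor 3 (0.0601). The pretumor difference passed it with the 2 stages fitted alone (adjusted p = 0.0118), with only probe sets of mean intensity of at least 16 tested (0.0197), with an intensity trend and robust prior (0.0431), and without tumor 3 (0.0179) or tumor 4 (0.0439). The spread between tumor samples, 42.3 to 172, was the widest of the stages on the log2 scale. Summed markers of microglia and macrophages, which can express Pdgfa, were also higher in every later sample than in every GCP sample. The sums were 306 to 667 in GCP, 1024 to 1643 in pretumor and 770 to 2236 in tumor samples. Lyz2 and Ctss alone were called of 18. They made up much of the rise of the sum, with mean intensities of 200 and 559 over all arrays. Laptm5, with a mean intensity of 196, was not called. In tumors 1 to 5 the sums were 1058, 1691, 2236, 810 and 770, beside Pdgfa intensities of 107, 143, 42.3, 172 and 64.2. The part of these cells in the Pdgfa difference was not tested.

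Igf2, the hedgehog-linked ligand named above, was in the low band on every array. Its brighter probe set, 98623_g_at, had 9.78, 9.73, 8.18 and 7.92 in GCP samples, 11.6, 8.44, 7.91, 5.68 and 4.97 in pretumor samples, and 3.54, 7.13, 11.3, 5.41 and 6.60 in tumor samples. The 3 stages overlapped, and the highest and the lowest of the later samples lay on either side of all GCP samples. Mean log2 levels were 3.15 ± 0.16 in GCP, 2.88 ± 0.49 in pretumor and 2.66 ± 0.61 in the tumor samples, and no difference was called. The other probe set, 98622_at, ran from 2.59 to 2.98 over all arrays. Igf1, the second IGF1R ligand, was likewise in the low band on every array, at 3.47 to 4.60 for 95545_at and 2.51 to 3.06 for 95546_g_at. Neither of its probe sets was called, and at these intensities a change in Igf1 or Igf2 RNA may not be measurable.

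**Figure D2:**
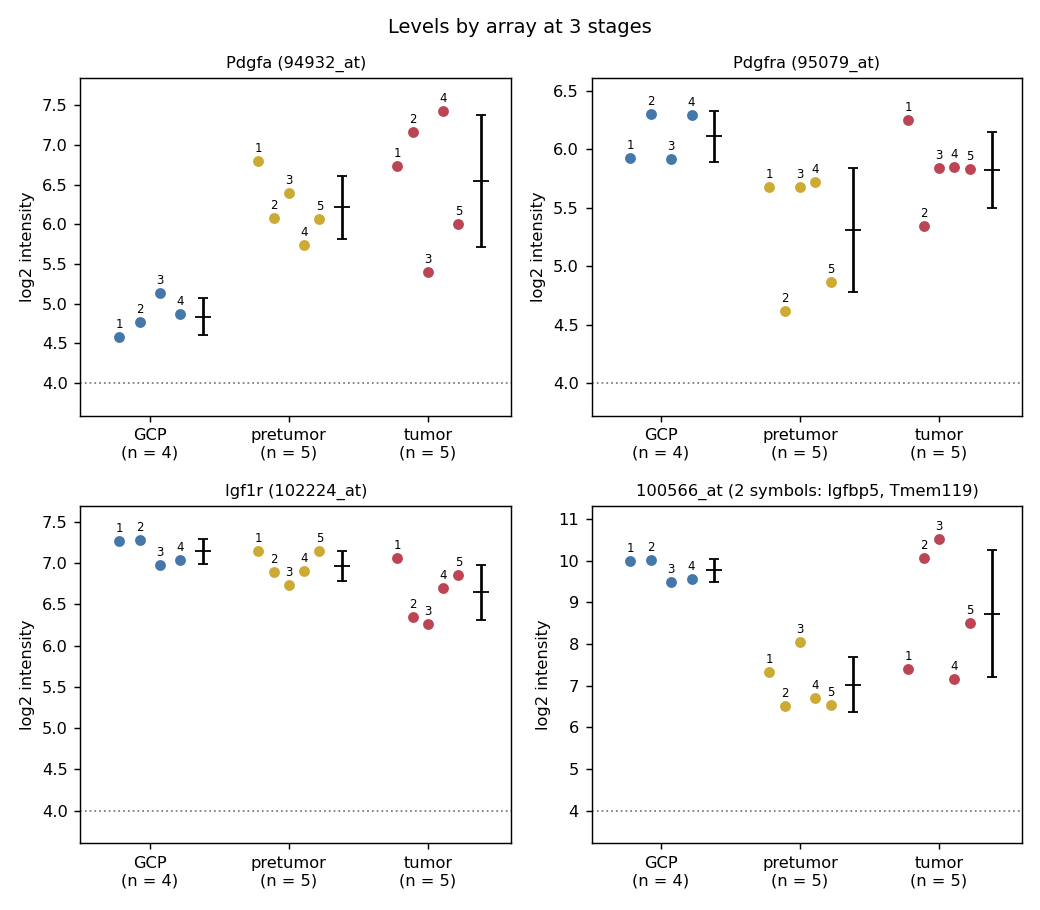
Log2 intensity (vertical axes, each with its own range) of Pdgfa, Pdgfra, Igf1r and 100566_at by stage, 1 numbered point per array, with bars for the group mean and SD; the dotted line marks an intensity of 16. All later-stage points of Pdgfa lie above the GCP points, all pretumor points of Pdgfra and of 100566_at lie below the GCP points, and the tumor points of 100566_at span 142 to 1471 in intensity.

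Igf1r, the receptor for both IGF ligands, was measured well above the low band, and none of its differences between stages passed the test. Probe set 102224_at had 154, 155, 126 and 132 in GCP samples, 142, 119, 107, 120 and 142 in pretumor samples, and 133, 81.7, 76.8, 104 and 116 in tumor samples. Tumor 2 and tumor 3 were the lowest of all 14, and the stages overlapped. Its mean log2 levels were 7.14 ± 0.15 in GCP, 6.97 ± 0.18 in pretumor and 6.65 ± 0.34 in the tumor samples. Tumor minus GCP was -0.50 (SE 0.16, 95% interval -0.84 to -0.15, adjusted p = 0.114), a size of 1.41-fold. It passed the threshold with replicate numbers as a block (difference -0.55, adjusted p = 0.0307) and without tumor 1 (difference -0.60, adjusted p = 0.0444). Pretumor minus GCP was -0.17 (95% interval -0.52 to 0.17, adjusted p = 0.727), and tumor minus pretumor was -0.32 (95% interval -0.65 to 0.00, adjusted p = 0.445).

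Pdgfra, the alpha receptor, had its lowest mean in the preneoplastic samples, though no difference passed the test. Probe set 95079_at had 60.8, 78.7, 60.3 and 78.3 in GCP samples, 51.1, 24.5, 51.2, 52.8 and 29.0 in pretumor samples, and 76.1, 40.6, 57.0, 57.6 and 57.0 in tumor samples. All pretumor samples lay below all GCP samples, with pretumor 2 and pretumor 5 the lowest of the 14, and the tumor samples overlapped both. Its mean log2 levels were 6.11 ± 0.22 in GCP, 5.31 ± 0.53 in pretumor and 5.82 ± 0.32 in the tumor samples. The pretumor minus GCP difference of -0.80 (SE 0.25, 1.74-fold lower, 95% interval -1.35 to -0.25) missed the threshold (adjusted p = 0.114) and passed it with only probe sets of mean intensity of at least 16 tested (adjusted p = 0.0490). Tumor minus GCP was -0.29 (95% interval -0.84 to 0.27, adjusted p = 0.717), and tumor minus pretumor was 0.51 (95% interval -0.01 to 1.03, adjusted p = 0.450). Of the other Pdgfra probe sets, 160332_at ran from 3.36 to 4.35, and 161202_r_at was below the floor of 2.45 on every array and could not be tested.

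Markers of oligodendrocyte precursors, the cells for which Pdgfra is best known, were also measured. Their summed intensity over the 4 measured markers ran from 198 to 283 in GCP, 150 to 176 in pretumor and 18.9 to 44.0 in the tumor samples. Of the 4, limma called 2 lower in tumor than in GCP, 1 lower in tumor than in pretumor, and 0 in pretumor against GCP (0 also at an unadjusted p under 0.05). Most of the sum was Ptprz1, a receptor phosphatase of glial precursors, which fell at least 14.4-fold in tumor against GCP samples (log2 3.16 ± 1.20 against 7.85 ± 0.25, adjusted p = 0.000143). Sox10 and Ncan were in the low band at every stage, and Nkx2-2, the second marker called, fell within it. Whether the Pdgfra levels stem from such cells was not tested.

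Pdgfrb, the beta receptor, was in the low band on all arrays, between 2.64 and 3.16 for 160867_at, and was not called. Markers of pericytes and smooth muscle were also mostly low, with 12 of 13 below a mean intensity of 16, Acta2 and Rgs5 among them. Their summed intensity ran from 56.2 to 70.9 in GCP, 61.2 to 90.1 in pretumor and 89.6 to 179 in the tumor samples. Foxf2 was the brightest of the 13 (mean intensity 27.4 over all arrays) and made up much of the rise of this sum. Of these 13, Foxf2 was called higher, and Rgs5 and Notch3 lower, at each later stage against GCP. Foxf2 encodes a forkhead factor of brain pericytes and was at 1.67 ± 0.24 in GCP, 4.40 ± 0.44 in pretumor and 5.63 ± 0.54 in the tumor samples (log2). The 0 called in tumor against pretumor samples compare with 2 at an unadjusted p under 0.05.

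**Figure D3:**
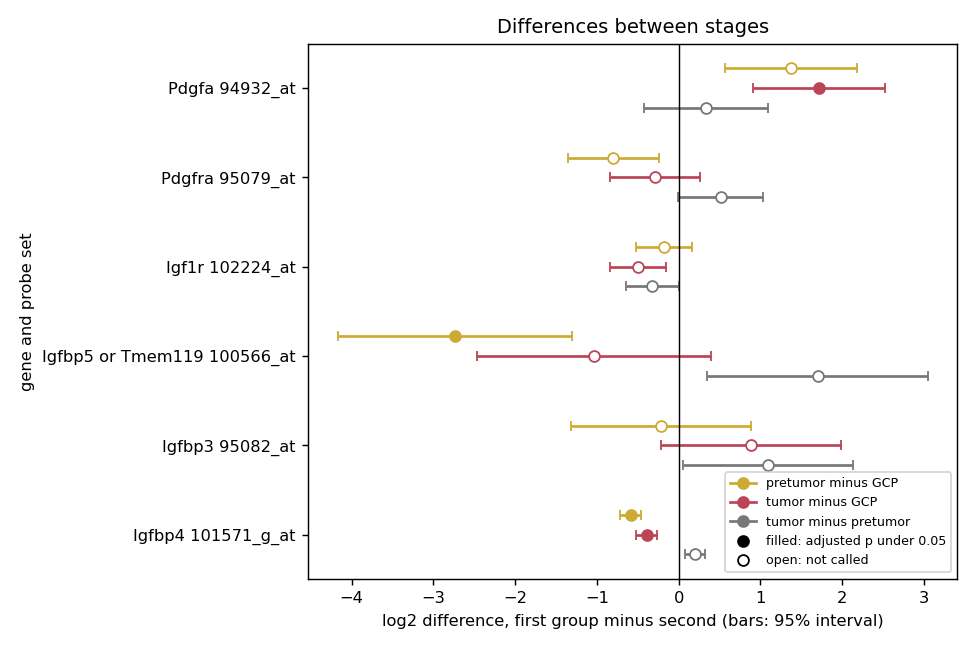
Log2 difference between stages (horizontal axis, first stage minus second, with 95% intervals) for 100566_at and the brightest probe set of 5 genes (vertical axis); filled points passed an adjusted p of 0.05. Pdgfa in tumor minus GCP, 100566_at in pretumor minus GCP and Igfbp4 101571_g_at in both are filled.

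Igfbp3, a carrier of IGFs in the circulation, left the low band on 1 array. Probe set 95082_at had 3.88, 4.03, 3.88 and 3.91 in GCP samples, 3.06, 3.34, 3.59, 3.19 and 3.74 in pretumor samples, and 3.05, 14.2, 23.7, 3.56 and 5.39 in tumor samples. Only tumor 3 exceeded 16, with tumor 2 next, and the other 3 tumor samples lay between 3.05 and 5.39. No difference was called (adjusted p = 0.945 for pretumor against GCP, 0.483 for tumor against GCP and 0.406 for tumor against pretumor). The second probe set, 95083_at, ran from 2.96 to 3.76 and did not show these high values. Its tumor samples all lay above its pretumor samples, within the low band. That log2 difference of 0.17 was not called (limma adjusted p = 0.130). On both probe sets all pretumor samples lay below all GCP samples, also within the low band. Pretumor was at most 3.74 against at least 3.88 in GCP for 95082_at, and 3.19 against 3.23 for 95083_at. For 95083_at this was not called either (limma adjusted p = 0.344).

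Igfbp4, an inhibitory binding protein, was called lower at both later stages, entirely within the low band. Probe set 101571_g_at had 5.05, 4.72, 4.92 and 5.31 in GCP samples, 3.53, 3.27, 3.28, 3.30 and 3.26 in pretumor samples, and 3.65, 4.26, 4.11, 3.53 and 3.54 in tumor samples. Every later sample lay below every GCP sample. The log2 difference was -0.59 in pretumor minus GCP (SE 0.06, adjusted p = 0.000275) and -0.39 in tumor minus GCP (SE 0.06, adjusted p = 0.00263), and no fold is given because both groups are below 16. Tumor minus pretumor was 0.19 (adjusted p = 0.164). The tumor call ended with GCP 1 and GCP 2 as the only GCP arrays (difference -0.36, adjusted p = 0.0516), and with a floor at 16 no value is left. The other Igfbp4 probe sets, 101570_at and 94222_at, ran from 2.44 to 2.77 and from 2.94 to 3.97 and were not called.

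Probe set 100566_at, annotated to Igfbp5 and to the membrane protein gene Tmem119, was lower in pretumor than in GCP samples and varied widely between tumors. It had 1021, 1039, 715 and 749 in GCP samples, 160, 90.7, 266, 104 and 92.9 in pretumor samples, and 167, 1062, 1471, 142 and 362 in tumor samples. All pretumor samples lay below all GCP samples, while tumor 2 and tumor 3 exceeded every GCP sample and the other 3 tumor samples lay below all of them. The mean log2 level was 9.76 ± 0.29 in GCP, 7.02 ± 0.66 in pretumor and 8.72 ± 1.53 in the tumor samples. It fell 6.68-fold in pretumor against GCP samples (log2 difference -2.74, SE 0.66, adjusted p = 0.0359). Tumor minus GCP was -1.04 (95% interval -2.47 to 0.39, adjusted p = 0.542), and tumor minus pretumor was 1.70 (95% interval 0.35 to 3.05, adjusted p = 0.297). The pretumor call ended in 13 of 25 alternatives, among them the removal of any GCP array (adjusted p = 0.0776 to 0.0954) or of pretumor 1, 2, 4 or 5 (0.0606 to 0.0917), either GCP pair alone (0.181 and 0.222) and the replicate block (0.0779). The difference lay between -3.00 and -2.49 in all 25.

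Markers of other cells that express Igfbp5, Igfbp3 or Tmem119 also differed between samples. Igfbp5 is expressed by fibroblast-like cells, and the summed intensity of 15 markers of meninges and fibroblasts ran from 489 to 1004 in GCP, 132 to 224 in pretumor and 68.7 to 532 in the tumor samples. Of the tumor samples, tumor 3 had the highest sum (532) and tumor 2 the next (224). Pretumor 3 also had a sum of 224, with 100566_at at 266, against 1062 in tumor 2. The brightest of the 15 was Dcn (mean intensity 216 over all arrays), which was not called. Of the 15, 3 were called lower in pretumor than in GCP and 2 lower in tumor than in GCP, and 12 had a mean below 16, with Dcn, Lum and Postn above it. In tumor against pretumor samples 0 were called, and 1 at an unadjusted p under 0.05. Tmem119 is known from microglia, and the 18 microglia and macrophage markers summed to 306 to 667 in GCP, 1024 to 1643 in pretumor and 770 to 2236 in the tumor samples. Tumor 3 (2236) and tumor 2 (1691) had the highest sums of the tumors, and every pretumor sample had a higher sum than every GCP sample. Ctss and Lyz2 made up much of the higher sums at the later stages. Of these 18, Lyz2 and Ctss were called higher at each later stage against GCP, 0 in tumor against pretumor (3 at an unadjusted p under 0.05), and 13 had a mean below 16, Cx3cr1 and Aif1 among them. The part of these cells in the level of 100566_at or of Igfbp3 was not tested.

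Endothelial markers, from vessels that also express binding proteins, summed to 117 to 160 in GCP, 72.8 to 102 in pretumor and 52.4 to 72.6 in the tumor samples. Every later sample thus lay below every GCP sample. Of 12 measured, 4 were called lower in pretumor and 6 lower in tumor than in GCP, and 0 in tumor against pretumor (4 at an unadjusted p under 0.05). All but Cldn5 had a mean below 16. The 10 markers of astrocytes and Bergmann glia summed to 9947 to 13568 in GCP, 1480 to 2324 in pretumor and 526 to 2005 in the tumor samples, so that here too every later sample lay below every GCP sample. Of these 10, 6 were called lower in tumor than in GCP and 3 lower in tumor than in pretumor. In pretumor against GCP, 1 was called higher (Aldoc) and 1 lower (Fabp7). Fabp7 made up most of the astrocyte and Bergmann glia sum on the GCP arrays, at a mean log2 of 13.24. Its pretumor minus GCP difference was -3.45, whereas the median over the 10 markers was -0.50. Aldoc, Glul and Slc1a2 had higher means in pretumor than in GCP, and the remaining markers had lower means. Of 9 oligodendrocyte markers, 3 were called higher in pretumor than in GCP, 1 lower in tumor than in GCP, and 4 lower in tumor than in pretumor. The 9 oligodendrocyte markers summed to 139 to 245 in GCP, 249 to 727 in pretumor and 81.4 to 163 in the tumor samples. Of 5 choroid plexus markers, Kl was called higher in pretumor than in GCP and 2 lower in tumor than in pretumor. Of 9 markers of Purkinje cells and inhibitory interneurons, 2 were called lower at each later stage against GCP and 1 lower in tumor than in pretumor. Beside the counts of markers here and above, 4.36% of all probe sets were called in pretumor and 4.60% in tumor against GCP. In tumor against pretumor the share was 0.998%. The part of these cell types in the members' levels was not tested.

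Other genes of the IGF system were mostly in the low band, with 15 of 17 measured below a mean of 16 and, among them, Igf2r, Insr, Irs1 and Irs2. Of the 17, limma called 0 higher and 1 lower in pretumor against GCP, 0 higher and 2 lower in tumor against GCP, and 0 higher and 1 lower in tumor against pretumor. The list's median log2 difference was -0.04, -0.03 and 0.03 in these comparisons.

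Plagl1, an imprinted zinc finger gene, was lower at both later stages. Probe set 92502_at had 12.8, 28.9, 26.1 and 25.0 in GCP samples, between 2.55 and 4.79 in pretumor samples (median 2.78), and between 2.05 and 4.15 in tumor samples (median 2.65). No later sample reached the lowest GCP sample. It fell at least 1.38-fold at each later stage, a bound set against an intensity of 16 (log2 difference -2.82, adjusted p = 0.000126 in pretumor, and -2.97, adjusted p = 6.15e-05 in tumor, both against GCP). With a floor at 16 the calls ended (adjusted p = 0.0731 and 0.0689). Its second probe set, 92501_s_at, had a log2 difference of -0.28 (adjusted p = 0.0193) in pretumor and -0.22 (adjusted p = 0.0573) in tumor against GCP samples.

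Igfbp2, a binding protein of the developing brain, was lower in tumor than in GCP samples. Probe set 98627_at had 60.1, 101, 102 and 101 in GCP samples, 190, 106, 153, 55.6 and 52.7 in pretumor samples, and 18.95, 32.1, 39.0, 4.30 and 16.4 in tumor samples. All tumor samples lay below all other samples. Igfbp2 fell 5.06-fold in tumor against GCP samples (log2 4.13 ± 1.25 against 6.47 ± 0.38, difference -2.34, adjusted p = 0.0482), a call that ended in 18 of 25 alternatives. Against pretumor samples the tumor difference was -2.48 (adjusted p = 0.0719).

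Htra1, a secreted protease that can cleave IGF binding proteins, had its highest mean in pretumor samples. Probe set 96920_at had 48.4, 50.3, 37.4 and 50.0 in GCP samples, 149, 97.0, 44.0, 86.7 and 60.9 in pretumor samples, and 23.7, 26.2, 47.2, 15.5 and 25.1 in tumor samples. Tumor and pretumor samples overlapped only through tumor 3 and pretumor 3. Htra1 fell 3.12-fold in tumor against pretumor samples (log2 difference -1.64, adjusted p = 0.0408), and that call ended in 16 of 23 alternatives. Summed markers of the choroid plexus were also highest in pretumor samples, at 624 to 3212 in GCP, 5149 to 14544 in pretumor and 19.5 to 1155 in the tumor samples, and so were those of oligodendrocytes given above. Most of the choroid plexus sum in GCP and pretumor samples was Ttr (mean intensity 3738 over all arrays, against 74.5 for Kl, the next). Ttr was not called (limma adjusted p = 0.544 for pretumor against GCP, 0.186 for tumor against GCP and 0.0612 for tumor against pretumor). The part of these cell types in the Htra1 and Igfbp2 levels was not tested.

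**Figure D4:**
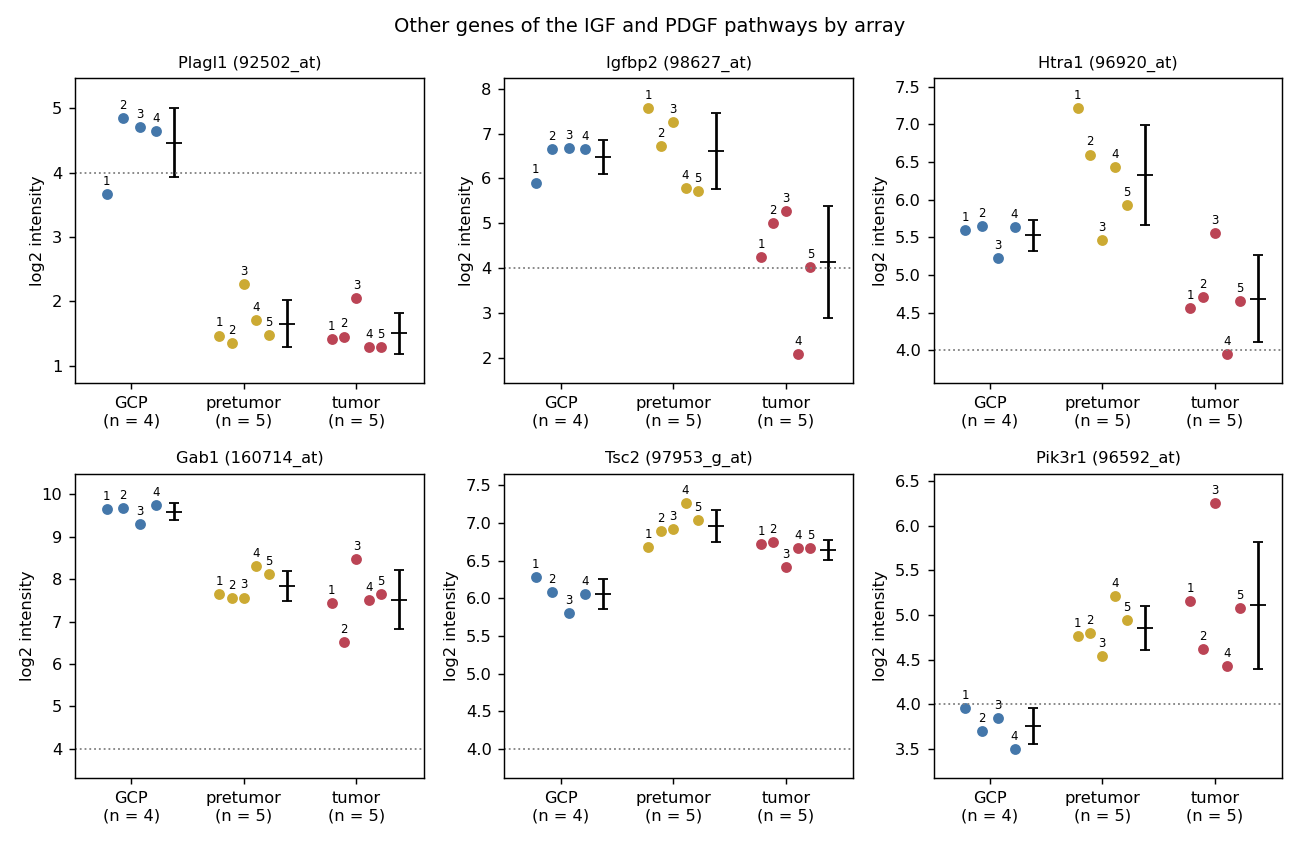
Log2 intensity (vertical axes, each with its own range, values floored at 2.45 in intensity) of Plagl1, Igfbp2, Htra1, Gab1, Tsc2 and Pik3r1 by stage, 1 numbered point per array, with bars for the group mean and SD; the dotted line marks an intensity of 16. Plagl1 and Gab1 are lower, and Tsc2 and Pik3r1 higher, on all later arrays than on all GCP arrays, and Igfbp2 is lowest in tumor samples.

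Of 12 genes measured from the list of other PDGF system genes, 0 were called higher and 2 lower in pretumor than in GCP. In tumor against GCP 0 were called higher and 1 lower, and in tumor against pretumor 0 (3 at an unadjusted p under 0.05). That list also holds Kit, Flt3, their ligands Kitl and Flt3l, and Csf1, which are relatives of PDGF system genes and not part of it. At an unadjusted p under 0.05 there were 2 in pretumor and 2 in tumor against GCP. Of all probe sets, 4.36%, 4.60% and 0.998% were called in the 3 comparisons. The list's median log2 difference was -0.09, 0.03 and 0.06, beside -0.01, 0.00 and 0.01 over all probe sets. Plat, the tissue plasminogen activator, which can release active PDGF-C from its latent form, was lower at both later stages. Its probe set 93981_at had 27.2, 23.0, 19.9 and 28.4 in GCP samples, 8.75 to 15.1 in pretumor samples and 9.27 to 21.0 in tumor samples, where tumor 3 overlapped GCP. The log2 difference was -0.997 in pretumor (adjusted p = 0.0245) and -0.89 in tumor (adjusted p = 0.0423) against GCP samples. These calls ended in 10 and 17 of 25 alternatives. Furin, a protease that processes PDGF-A, fell 1.16-fold in pretumor against GCP samples (adjusted p = 0.0402), with 44.0 to 49.6 in pretumor and 52.0 to 57.4 in GCP samples, and that call ended in 18 of 25. Sparc, a matrix protein that binds PDGF and the brightest of the list, was at 10.87 ± 0.35 in GCP, 9.89 ± 0.18 in pretumor and 9.13 ± 1.62 in the tumor samples (log2) and was not called. Pdgfb was in the low band at every stage.

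Of 14 PI3K and Akt pathway genes measured, 1 was called higher and 0 lower in pretumor than in GCP, and 3 higher and 0 lower in tumor than in GCP. In tumor against pretumor 0 were called, and 2 at an unadjusted p under 0.05. At an unadjusted p under 0.05 there were 5 in pretumor and 5 in tumor against GCP, beside 15.4% of all probe sets in each. Of all probe sets, 1.67% were called higher and 2.69% lower in pretumor against GCP, and 1.41% and 3.19% in tumor against GCP. The list's median log2 difference was 0.05, 0.11 and 0.09, beside -0.01, 0.00 and 0.01 over all probe sets. Tsc2, whose product with Tsc1 restrains mTOR, was higher at both later stages. Probe set 97953_g_at had 77.7, 68.0, 55.7 and 66.6 in GCP samples, 102 to 154 in pretumor samples (median 121) and 85.4 to 108 in tumor samples (median 102), with no overlap with GCP. Tsc2 rose 1.87-fold in pretumor against GCP samples (log2 difference 0.90, adjusted p = 0.00142), and this call held in all 25 alternatives. In tumor against GCP samples it rose 1.504-fold (log2 difference 0.59, adjusted p = 0.0150), a call that ended with the GCP pairs averaged and with GCP 1 and GCP 2 as the only GCP arrays. The other Tsc2 probe sets, 97951_s_at and 97952_at, were in the low band and not called.

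Pik3r1, a regulatory subunit of PI3K that also stabilises the catalytic subunit, was in the low band in all GCP samples, at 15.5, 13.0, 14.4 and 11.3. It was at 23.3 to 37.0 in pretumor samples and 21.5 to 76.4 in tumor samples, with no overlap with GCP. Pik3r1 rose at least 2.15-fold in tumor against GCP samples (log2 difference 1.35, adjusted p = 0.0240), a call that ended in 11 of 25 alternatives. Pretumor against GCP missed the threshold (log2 difference 1.10, adjusted p = 0.0669). Eif4ebp1, a repressor of cap-dependent translation that mTOR inactivates, was called higher in tumor than in GCP samples with both group means in the low band (adjusted p = 0.0232), a call that ended in 11 of 24 alternatives, the floor at 16 among them. Gsk3a, the brightest of the list, was at 11.34 ± 0.50 in GCP, 11.08 ± 0.08 in pretumor and 11.11 ± 0.10 in the tumor samples and was not called.

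Of 17 Ras and MAP kinase pathway genes measured, only Gab1 was called, lower at each later stage against GCP. In tumor against pretumor 0 were called, and 1 at an unadjusted p under 0.05. At an unadjusted p under 0.05 there were 3 in pretumor and 3 in tumor against GCP. Of all probe sets, 4.36%, 4.60% and 0.998% were called in the 3 comparisons. The list's median log2 difference was 0.00, 0.01 and 0.03, beside -0.01, 0.00 and 0.01 over all probe sets. Gab1, a docking protein that links receptor tyrosine kinases to PI3K and to the phosphatase SHP2, had 800, 810, 628 and 860 in GCP samples (160714_at). It had 189 to 319 in pretumor samples (median 199) and 91.4 to 358 in tumor samples (median 182), and no later sample reached the GCP range. Gab1 fell 3.35-fold in pretumor (log2 difference -1.75, adjusted p = 0.00837) and 4.20-fold in tumor samples (log2 difference -2.07, adjusted p = 0.00263), each against GCP. The tumor call held in all 25 alternatives, and the pretumor call ended with each GCP pair alone and with the pairs averaged. The second Gab1 probe set, 93902_at, had a mean intensity of 6.88 and was not called. Nras, the brightest of the list, was not called.

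The genes whose log2 intensity followed each bright member most closely over the 14 arrays were taken from 3035 genes with a mean intensity of at least 16. For Pdgfa these were Jun (Pearson r = 0.930), a subunit of the AP-1 transcription factor, Zeb1 (0.885), a zinc finger repressor, and Prm1 (0.883), a sperm chromatin protein. For Igf1r they were Ptprr (0.948), a receptor phosphatase, Api5 (0.857), an apoptosis inhibitor, and Ctnnd2 (0.854), a neuronal catenin. For Pdgfra they were Cask (0.779), a synaptic scaffold kinase, Sdhaf2 (0.756), a mitochondrial assembly factor, and Agap1 (0.750), an Arf GTPase activator. The 14 points share 3 stages, so a gene that differs between stages in the same way scores high, and these values describe likeness only.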

How the data were processed

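The deposited table holds linear intensities, 1 per probe set and array, for 12488 probe sets on 14 arrays; the authors' summarisation and normalization of them are not given in the sources used here. Array medians differed by at most 0.094 log2 units (under 0.2), so no further normalization was applied. The 66 control probe sets were left out, and log2 was taken after raising intensities under 2.45, the 10th percentile over the whole table, to that floor. limma 3.58.1 in R 4.3.3 fitted 3 stage means to all arrays (11 residual degrees of freedom), with two-sided p-values adjusted by Benjamini-Hochberg over 12422 probe sets; the code was tested on simulated data. Folds are given where both means reach 16, as a bound against 16 where 1 does. Symbols come from the array annotation (10833 probe sets with 1, 396 with several, 1193 with none), and the 8 measured symbols are in the gene table of GRCm38.p6. The labels and the deposited table name no genome build, so no coordinates are given.

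The members and gene lists were chosen with earlier results of these data known. All member probe sets are named. From each list and comparison the rule takes up to 3 called genes with the largest difference, or else the brightest, each through its brightest probe set; marker genes are mostly given as counts and sums. Kl, Acta2, Rgs5, Cx3cr1, Aif1, Dcn, Lum, Atoh1, Sox10, Ncan, Igf2r, Insr, Irs1, Irs2 and Pdgfb, where named outside that rule, were chosen after their values were seen. Replicate numbers occur in every stage. Over 13 same-number pairs the correlation of deviations from stage means ran from -0.32 to 0.51, with 4 above 0.1. Between GCP and pretumor it was 0.38, 0.28, 0.51 and -0.27 for replicate numbers 1 to 4. These values do not settle whether a number marks samples handled together, so the replicate block was kept as an alternative. Alternatives were a floor at 16, a pseudocount, a filter on low values, quantile normalization, the 2 stages alone, a replicate block, an intensity trend with robust prior, GCP pairs averaged and each array left out. Leaving out tumor 2 with pretumor 3, and keeping 1 GCP pair, were added after seeing the data. Counts of arrays limit the precision.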

Additional observations from a re-analysis of the deposited data

Results flagged for a closer look

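Among 45 groups of arrays examined (the member probe sets and 100566_at at 3 stages, without Pdgfra 161202_r_at, which was at the floor on every array), 1 array lay apart from its group by Dixon's criterion, where chance gives about 1 in 20. Igfbp4 101571_g_at in pretumor 1 had a log2 level of 1.82, against 1.70 to 1.72 in the other pretumor samples. Its gap was 0.845 of the group's range. The intensity of 3.53 lies in the low band, below every GCP sample.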

How the results depend on the processing

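Over the members, 100566_at and all alternatives, no called difference changed direction; 1000 values kept their side of the threshold, and in 23 a call ended and in 8 one was gained. The members called in pretumor minus GCP (1) were 0 with a floor at 16 and 2 with the filter on low values, the 2 stages alone, or the trend and robust prior, and 1 to 2 with an array left out. In tumor minus GCP (2) they were 1 with the floor, the filter, the 2 stages alone, the pairs averaged, tumor 2 and pretumor 3 left out, or GCP 3 and GCP 4 alone, 0 with GCP 1 and GCP 2 alone, and 1 to 3 with an array left out. In tumor minus pretumor they were 0 throughout. With the replicate block they were 1, 2 and 0. Of all probe sets, 541, 571 and 124 were called (1913, 1912 and 1406 at an unadjusted p under 0.05). The floor at 16 gave 194, 232 and 32, GCP pairs averaged 168, 198 and 69, the 2 stages alone 689, 335 and 50, and the replicate block 383, 436 and 76. GCP 1 and GCP 2 alone gave 203 and 215, and GCP 3 and GCP 4 alone 298 and 310. With an array left out the counts were 331 to 624, 338 to 709 and 70 to 148; those more than 1.5 times lower were 331 and 338 without GCP 4, 72 without pretumor 1, and 70 without pretumor 2 or tumor 4. Floored at 16, probe sets wholly in the low band give no value, and the filter does not test them. Low signal limits what can be seen of Igf1, Igf2, Pdgfrb, Igfbp3 and Igfbp4.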
